A study of Mus musculus with 4 samples.

Results

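The genes described here encode the NF-kB transcription factor family and its regulators. They are the 5 subunits Rel, Rela, Relb, Nfkb1 and Nfkb2, the cytoplasmic inhibitors Nfkbia and Nfkbib, and the ubiquitin-editing enzyme Tnfaip3. Nfkbid and Nfkbiz, nuclear proteins of the inhibitor (IkB) family, are grouped with the inhibitors by family only. They were chosen by symbol, with no measured value used (in the table's capitals REL, RELA, RELB, NFKB1, NFKB2, NFKBIA, NFKBIB, NFKBID, NFKBIZ and TNFAIP3), and all 10 were found among the 24452 genes of the deposited table. Levels come from RNA sequencing of regulatory T cells (Tregs, a Foxp3-expressing CD4 lineage that keeps other immune cells in check) from the livers of young mice. There were 2 Altre-KO libraries, from mice in which the Treg long non-coding RNA Altre was knocked out, and 2 Altre-WT libraries. The labels do not give exact age, sex, strain or the form of the knockout allele, and nothing in them says that libraries of the same genotype were made from different animals; p-values then measure only the spread between these samples, which may be technical. In bulk RNA, fewer cells of a type and less RNA per cell cannot be told apart.

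NF-kB subunits work as dimers. In resting cells the inhibitor proteins of the IkB family hold most dimers in the cytoplasm; signals from the T cell receptor, CD28 and TNF-family receptors activate the IKK kinase complex, which marks the inhibitors for destruction and frees the dimers to enter the nucleus. Active dimers in turn raise transcription of their own inhibitors, Nfkbia and Tnfaip3 foremost, which gives the pathway its negative feedback. In mouse Tregs, c-Rel (Rel) is needed for normal development of the cells in the thymus, and both c-Rel and RelA contribute to the effector state.

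Feedback of this kind runs through kappa-B elements, and the promoter sequences are shown because they tell which of these genes carry such letters close to their start. The kappa-B consensus is a motif of 10 bases bound by NF-kB dimers, in which some positions allow either purine or either pyrimidine. It was searched on both strands of RefSeq promoter windows (build GRCm38.p6, 250 bases before to 50 after each start site), and matches that overlapped, as palindromic ones do, were counted as 1 place. A window was matched for 7 of the 10 genes; Nfkb1, Relb and Nfkbiz had no entry. Of those 7 genes, 5 had a match in at least 1 window (Rel, Nfkb2, Nfkbia, Nfkbid and Tnfaip3), against 9.55% of the 27025 genes with a window. Per window, 7 of 12 member windows had a match, against 8.46% of all 32851 windows. The member windows were rich in G and C bases, at 56.3% to 75% in all but the second window of Tnfaip3 (47%). The median over all windows was 52.7%. The part of base composition in these shares was not tested. The windows of Rela and Nfkbib had none, which says only that these letters are absent there. The 250 bases before the start site are printed for Nfkbia, the feedback inhibitor (chr12:55492648-55492897, minus strand), and for Rel, the c-Rel subunit (chr11:23770970-23771219, minus strand), 5′ to 3′ on the gene's strand with the matches in capitals.
Nfkbia: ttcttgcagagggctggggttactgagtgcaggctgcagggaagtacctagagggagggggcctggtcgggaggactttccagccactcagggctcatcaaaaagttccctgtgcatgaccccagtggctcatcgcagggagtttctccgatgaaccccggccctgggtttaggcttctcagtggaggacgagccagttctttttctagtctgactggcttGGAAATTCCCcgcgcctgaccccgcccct
Rel: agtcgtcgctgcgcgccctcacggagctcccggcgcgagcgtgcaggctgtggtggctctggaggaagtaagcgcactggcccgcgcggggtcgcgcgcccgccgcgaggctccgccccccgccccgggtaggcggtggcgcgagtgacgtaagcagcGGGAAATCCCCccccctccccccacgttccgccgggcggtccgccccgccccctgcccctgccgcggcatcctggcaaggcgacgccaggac
The Nfkbia match begins 29 bases upstream of the start site, and the Rel match, 11 bases long because several overlapping matches were joined, begins 92 bases upstream. In the other genes only the matches themselves are shown. For Nfkb2 they come from 3 windows, 1 for each start site; windows 2 and 3 overlap and share 1 match.
Nfkb2, first window, 39 bases upstream: GGGAATTCCCC
Nfkb2, first window, 11 bases upstream: GGGGCTTTCC
Nfkb2, second window, 236 bases upstream: GGAATGTCCC
Nfkb2, second window, 10 bases downstream (225 bases upstream in window 3): GGGACTTTCC
Tnfaip3, first window, 125 bases upstream: GGGACACCCC
Tnfaip3, first window, 12 bases upstream: GGAAATCCCC
Nfkbid, second window, 226 bases upstream: GGGACTTCCC
Nfkbid, second window, 181 bases upstream: GGAATTCCCC
All these are matches of letters, given as a description; binding was not measured in these libraries.

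The libraries held 1828773 to 3266131 estimated reads on listed genes, and single members were covered by 35 to 1725 reads. Levels are given in CPM, reads scaled so that the listed genes of each library share the same sum. Altre-KO replicate 1 stood apart in the share of its reads that lay on listed genes. This was 32.8%, against 21.5% in Altre-KO replicate 2, 18.8% in Altre-WT replicate 1 and 20.6% in Altre-WT replicate 2. Its estimated total of 9962168 reads was not apart, as the totals ran from 9710060 in Altre-WT replicate 1 to 11570131 in Altre-WT replicate 2. Altre-KO replicate 1 also had the lowest Foxp3, 79.5 CPM, against 140.5 to 162.4 CPM in the other 3 libraries, while Cd4 lay between 527.1 and 547 CPM in all 4. Il2ra (164.1 CPM against 190.0 to 212.5 CPM) and Cd3e (53.9 CPM against 68.5 to 90.8 CPM) were also lowest there. Ctla4 was at 389.5 CPM there, within the 329.4 to 411.1 CPM of the other 3, and Ikzf2 at 1226 CPM, against 1236 to 1272 CPM. Altre itself was not analysed here, and genotype rests on the labels alone. Hepatocyte markers were at or near 0 (6 genes, summed 0 to 1.69 CPM in Altre-KO and 0.84 to 1.09 CPM in Altre-WT, with Alb, Apoa2, Ttr and Cyp3a11 at 0 in every library). The 8 myeloid markers summed to 244.9 and 135.9 CPM in Altre-KO and to 150.9 and 253.9 CPM in Altre-WT, with Clec4f at 0 in 3 libraries and Vsig4 at 0 in all 4. The largest parts were Lyz2 and Csf1r. Lyz2 was at 165.03 and 66.05 CPM in Altre-KO and at 102.25 and 154.69 CPM in Altre-WT. Csf1r was at 41.95 and 40.64 CPM in Altre-KO and at 28.98 and 60.11 CPM in Altre-WT. The 5 B cell markers summed to 35.2 and 27.5 CPM in Altre-KO and to 38.3 and 31.1 CPM in Altre-WT. CD8 T and NK cell markers, 5 genes, summed to 17.2 and 14.4 CPM in Altre-KO and to 22.4 and 25.2 CPM in Altre-WT, with Cd8a at or below 0.42 CPM throughout. Cd8b1 was at 5.82 and 4.66 CPM in Altre-KO and at 7.11 and 8.83 CPM in Altre-WT. Klrk1 was at 3.67 and 2.54 CPM in Altre-KO and at 4.92 and 12.61 CPM in Altre-WT. Klrb1c was at 5.51 and 5.5 CPM in Altre-KO and at 10.39 and 1.26 CPM in Altre-WT. The 4 stellate cell markers summed to 0.31 and 2.54 CPM in Altre-KO and to 12.03 and 2.10 CPM in Altre-WT. The 5 endothelial markers summed to 175.5 and 211.7 CPM in Altre-KO and to 181 and 223.6 CPM in Altre-WT, nearly all of it Pecam1, which T cells also carry; Stab2, a liver sinusoidal gene, was at 0.92 and 1.27 CPM in Altre-KO and at 6.02 and 5.04 CPM in Altre-WT. The part of these markers in the results was not tested.

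No NF-kB subunit or inhibitor passed the test between Altre-KO and Altre-WT Tregs. In limma on log2(CPM + 1), fitted over the 10486 tested genes, all 10 members were tested and 0 passed a Benjamini-Hochberg adjusted p of 0.05, where 0.0381% of all tested genes (4, all lower in Altre-KO) did. None of the 10 had an unadjusted p under 0.05 either, against 3.66% of all tested genes; limma-voom on estimated reads also passed 0. In the authors' deposited table the adjusted p of all 10 was 1, while 0.0286% of the tested genes were under 0.05 there. In Altre-KO 5 members were higher and 5 lower, and their median log2 fold change was 0.0077, beside -0.013 over all tested genes. Each gene's 95% interval, unadjusted, lay between -0.75 and 0.76, so a 2-fold change in either direction fell outside all 10. With 20.8 prior degrees of freedom the variances were moderated strongly towards the trend of all tested genes. For most members the interval is therefore narrower than the gaps between their own libraries would give alone. For Rel, Rela and Tnfaip3 the exclusion of a 2-fold change rests on this moderation. For 8 of 10 members a gap between 2 libraries of the same genotype exceeded the difference between genotypes, against 80.5% of all tested genes.

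**Figure D1:**
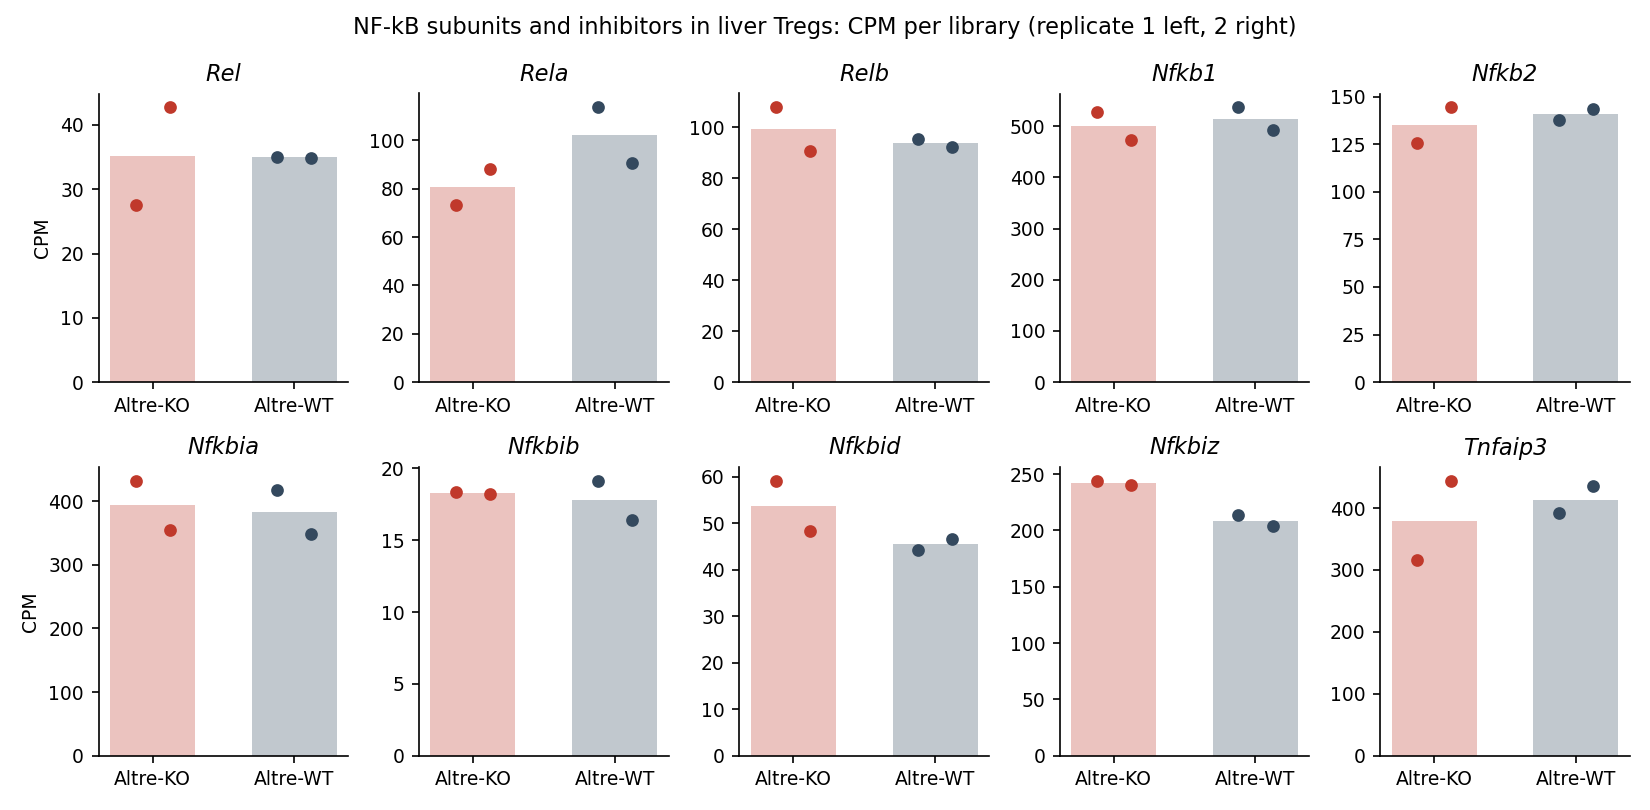
CPM of each NF-kB subunit and inhibitor in the 2 Altre-KO libraries (red, left) and the 2 Altre-WT libraries (grey, right); points are libraries, replicate 1 left of replicate 2, and bars are means. The genotypes do not overlap for Rela, Nfkbid and Nfkbiz, and the widest gaps within a genotype on the log2 scale are those of Rel and Tnfaip3 in Altre-KO.

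The subunits with a transactivation domain are Rel, Rela and Relb. Rela, which encodes the main activating partner of p50, had 73.2 and 88.1 CPM in Altre-KO Tregs, against 113.7 and 90.8 CPM in Altre-WT Tregs. Both Altre-KO values lay under both Altre-WT values, by 2.74 CPM at the nearest pair. The exact Poisson intervals of that pair overlapped (76.5 to 100.9 CPM in Altre-KO replicate 2 and 79.1 to 103.8 CPM in Altre-WT replicate 2). The log2 fold change was -0.34 (SE 0.20, 95% interval -0.75 to 0.07, limma adjusted p = 0.999). It ran from -0.18 without Altre-WT replicate 1 to -0.50 without Altre-WT replicate 2. The gene lies at chr19:5637483-5648130.

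Rel, which encodes c-Rel, had 27.6 and 42.8 CPM in Altre-KO, against 35.0 and 34.9 CPM in Altre-WT. The Altre-WT libraries nearly coincided, and the Altre-KO libraries lay on either side of them, so that the mean difference was close to 0 (log2 fold change -0.024, SE 0.28, 95% interval -0.60 to 0.55, limma adjusted p = 0.999). The Altre-KO values rested on 90 and 101 reads, and their exact Poisson intervals, which cover counting error only, did not overlap (22.2 to 33.9 CPM in replicate 1 and 34.8 to 52.0 CPM in replicate 2). Leaving out Altre-KO replicate 1 gave a log2 fold change of 0.28, and leaving out Altre-KO replicate 2 gave -0.33. Rel lies at chr11:23736847-23770970. Among 9734 other tested genes with an annotated name, those nearest to Rel across the 4 libraries were Lrch1, Nbeal2 and Mlxip, with root mean square differences of 0.016, 0.022 and 0.025 on the centred log2(CPM + 1) scale; with 4 libraries and so many genes, near neighbours are easily found.

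Relb, the activating subunit of the non-canonical branch, had 107.8 and 90.6 CPM in Altre-KO, against 95.2 and 92.1 CPM in Altre-WT. Altre-KO replicate 1 was the highest library and Altre-KO replicate 2 the lowest, and the log2 fold change was 0.078 (95% interval -0.31 to 0.47). Relb lies at chr7:19606217-19629438.

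Nfkb1 and Nfkb2 encode precursors that are processed to the DNA-binding subunits p50 and p52; uncleaved, they also act as inhibitors. Nfkb1 had 528.1 and 472.5 CPM in Altre-KO, against 537 and 492.7 CPM in Altre-WT, and the genotypes overlapped (log2 fold change -0.042, SE 0.15, 95% interval -0.34 to 0.26). This was the narrowest interval of the 10, on 982 to 1725 reads per library. Nfkb2 had 125.8 and 144.4 CPM in Altre-KO, against 137.8 and 143.3 CPM in Altre-WT (log2 fold change -0.060, 95% interval -0.42 to 0.30). Nfkb1 lies at chr3:135584655-135691547 and Nfkb2 at chr19:46304320-46312385. Exons of Nfkb2 overlap those of Psd on the opposite strand, and whether the counting used strand is not given in the sources used here; Psd was at 1.53 and 3.39 CPM in Altre-KO and at 3.28 and 12.2 CPM in Altre-WT.

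The cytoplasmic inhibitors are Nfkbia and Nfkbib. Nfkbia, which encodes IkB-alpha, had 432.3 and 355.6 CPM in Altre-KO, against 417.8 and 348.5 CPM in Altre-WT. In either genotype replicate 1 was the higher, beyond the counting intervals of the 2 libraries, and the genotypes differed by far less than that (log2 fold change 0.039, SE 0.16, 95% interval -0.28 to 0.36). Nfkbib, which encodes IkB-beta, was the least covered member at 35 to 60 reads, with 18.4 and 18.2 CPM in Altre-KO against 19.1 and 16.4 CPM in Altre-WT. Its log2 fold change was 0.044, with the widest interval of the 10 (-0.67 to 0.76). Nfkbia lies at chr12:55489410-55492647 and Nfkbib at chr7:28758251-28767512. Nfkbib shares exonic bases with Ccer2 and Sirt2 on the opposite strand, so its value is uncertain; Sirt2 was at 30.9 and 27.5 CPM in Altre-KO and at 41.6 and 23.1 CPM in Altre-WT, and Ccer2 at or below 0.61 CPM in all 4 libraries.

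The nuclear members of the IkB family, Nfkbiz and Nfkbid, work on chromatin rather than as cytoplasmic anchors. Neither passed the test; both Altre-KO values lay above both Altre-WT values, as they did for 14.7% of all tested genes. Nfkbiz, which encodes IkB-zeta, had 244 and 240.5 CPM in Altre-KO, against 213.3 and 203.9 CPM in Altre-WT. The libraries of a genotype lay within 10 CPM of each other, closer than counting error alone would require. Between genotypes the counting intervals of the nearest pair overlapped (221.1 to 261.1 CPM in Altre-KO replicate 2 and 192.6 to 235.5 CPM in Altre-WT replicate 1). The log2 fold change was 0.22 (SE 0.15, 95% interval -0.10 to 0.54, limma adjusted p = 0.999). It lay between 0.18 and 0.25 whichever library was left out, where its sign could not change because the genotypes did not overlap. Nfkbid, which encodes IkB-NS and is known in mouse to promote Foxp3 expression during Treg development, had 59.1 and 48.3 CPM in Altre-KO, against 44.3 and 46.7 CPM in Altre-WT. At its nearest pair the counting intervals overlapped (39.8 to 58.0 CPM in Altre-KO replicate 2 and 38.4 to 56.2 CPM in Altre-WT replicate 2). Its log2 fold change was 0.23 (SE 0.23, 95% interval -0.26 to 0.71, limma adjusted p = 0.999), and 0.085 without Altre-KO replicate 1. Nfkbiz lies at chr16:55811375-55838899 and Nfkbid at chr7:30421732-30428746.

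Tnfaip3, which encodes A20, the enzyme that shuts off signalling upstream of IKK, had 315.4 and 444.1 CPM in Altre-KO, against 392.1 and 435.5 CPM in Altre-WT. Altre-KO replicate 1 was the lowest of the 4 libraries and Altre-KO replicate 2 the highest, with counting intervals that did not overlap (296.4 to 335.2 CPM in replicate 1 and 417.7 to 471.8 CPM in replicate 2). The log2 fold change was -0.14 (SE 0.16, 95% interval -0.48 to 0.20, limma adjusted p = 0.999), and it was 0.10 without Altre-KO replicate 1 and -0.39 without Altre-KO replicate 2. Tnfaip3 lies at chr10:19000910-19015657.

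**Figure D2:**
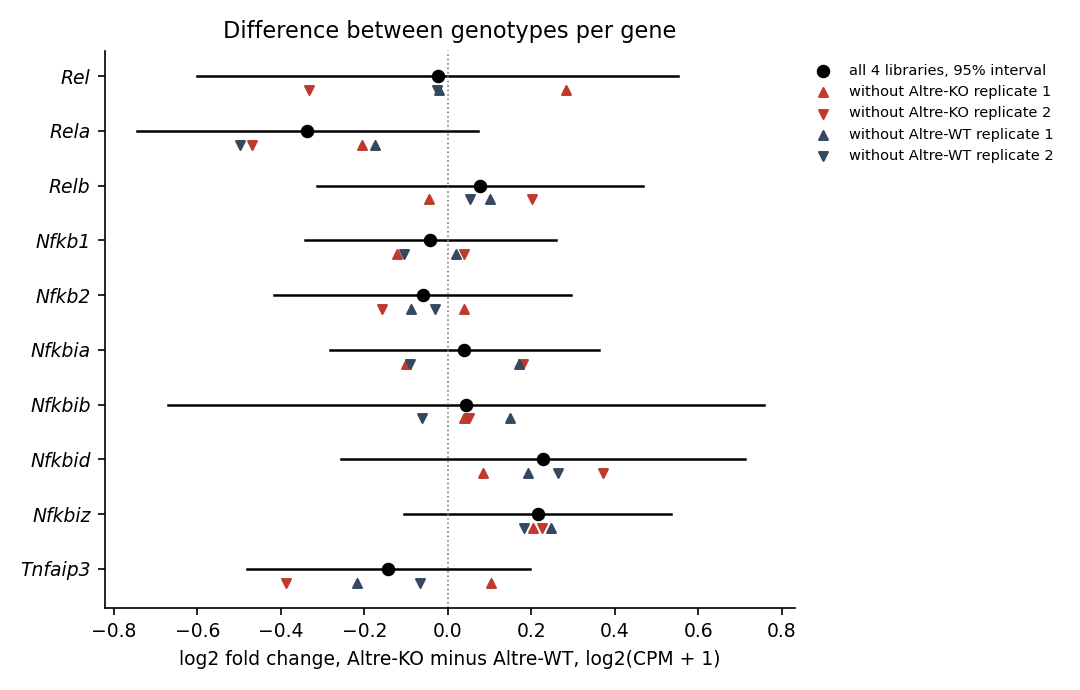
Log2 fold change (Altre-KO minus Altre-WT, log2(CPM + 1), horizontal axis) of each gene with its unadjusted 95% limma interval (black), and below it the value with each library left out (red, an Altre-KO library; grey, an Altre-WT library). Every interval includes 0; Nfkbiz keeps 0.18 to 0.25 whichever library is left out, while Rel runs from -0.33 to 0.28.

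The genotypes did not overlap for 3 of 10 members (Rela, Nfkbid and Nfkbiz), where 30.8% of all tested genes did not overlap, so the members' share was near the background. With median-of-ratios size factors Rela overlapped too, leaving 2. By direction these were 2 higher, against 14.7% of all tested genes, and 1 lower, against 16.1%. With 2 libraries against 2, an exact permutation test cannot go below p = 0.333. Altre-KO replicate 1 was the highest or lowest library for 8 of the 10 members, 4 in each direction: highest for Relb, Nfkbia, Nfkbid and Nfkbiz, and lowest for Rel, Rela, Nfkb2 and Tnfaip3. Over all tested genes that share was 56.5%. The typical gap between the 2 Altre-KO libraries was 0.26 on the log2 scale for members and 0.27 for all tested genes, and between the 2 Altre-WT libraries 0.10 for members and 0.24 for all tested genes (medians of absolute differences).

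Ratios within a library do not depend on how libraries are scaled. Of 7 ratios and sums computed, chosen after the values were seen, Nfkbiz over Rela differed most between genotypes, at 3.33 and 2.73 in Altre-KO against 1.87 and 2.25 in Altre-WT (two-sided exact permutation p = 0.333, the smallest this design allows, and unadjusted). Nfkbiz was higher and Rela lower in both Altre-KO libraries, so this ratio had to separate the genotypes and its p was fixed in advance. Relb over Rela came next, at 1.47 and 1.03 in Altre-KO against 0.84 and 1.01 in Altre-WT (exact permutation p = 0.333). Nfkbia over Rela was 5.91 and 4.04 in Altre-KO against 3.67 and 3.84 in Altre-WT (exact permutation p = 0.333), with Altre-KO replicate 1 apart from the other 3 libraries. These ratios all divide by Rela, so each carries the same Rela difference. Tnfaip3 over Nfkbia overlapped, at 0.73 and 1.25 in Altre-KO against 0.94 and 1.25 in Altre-WT (exact permutation p = 0.667). Nfkbia and Nfkbib over Rel, Rela and Relb, each summed in CPM per kb of the longest coding transcript, overlapped too. This ratio was 3.56 and 2.96 in Altre-KO against 3.06 and 2.87 in Altre-WT (exact permutation p = 0.667).

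Compared per length, the members spanned a wide range of levels. CPM per kb of the longest coding transcript, averaged over the 4 libraries, was 246.2 for Nfkbia (SD 27.0, n = 4 libraries of both genotypes), 123.3 for Nfkb1 (SD 7.34), 89.7 for Tnfaip3 (SD 13.3), 54.8 for Nfkbiz (SD 4.83) and 43.6 for Relb (SD 3.54). Then came Nfkb2 at 35.8 (SD 2.21), Rela at 33.7 (SD 6.17), Nfkbid at 24.3 (SD 3.21), Nfkbib at 8.75 (SD 0.57) and Rel at 4.69 (SD 0.83). Neighbours in this order whose ranges overlapped were Nfkb2 with Rela, and Rela with Nfkbid. Nfkbia stood at the 98.8th percentile of tested genes on this scale, Nfkb1 at 96.6 and Tnfaip3 at 94.1, while Rel stood at 21.4. With the length of all annotated exons instead, a comparison added once the data had been seen, Nfkb1 moved to rank 4 at 42.1 CPM per kb, under Tnfaip3 (54.9) and Nfkbiz (44.9), and Relb to rank 7 at 24.8, under Nfkb2 (30.1) and Rela (29.8). Nfkbia stayed first and Nfkbib and Rel last. Rel has 7466 bases by either length, so its own value could not change and was not checked by this comparison. In CPM not divided by length, Rel lay above Nfkbib in every library and below every other subunit.

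**Figure D3:**
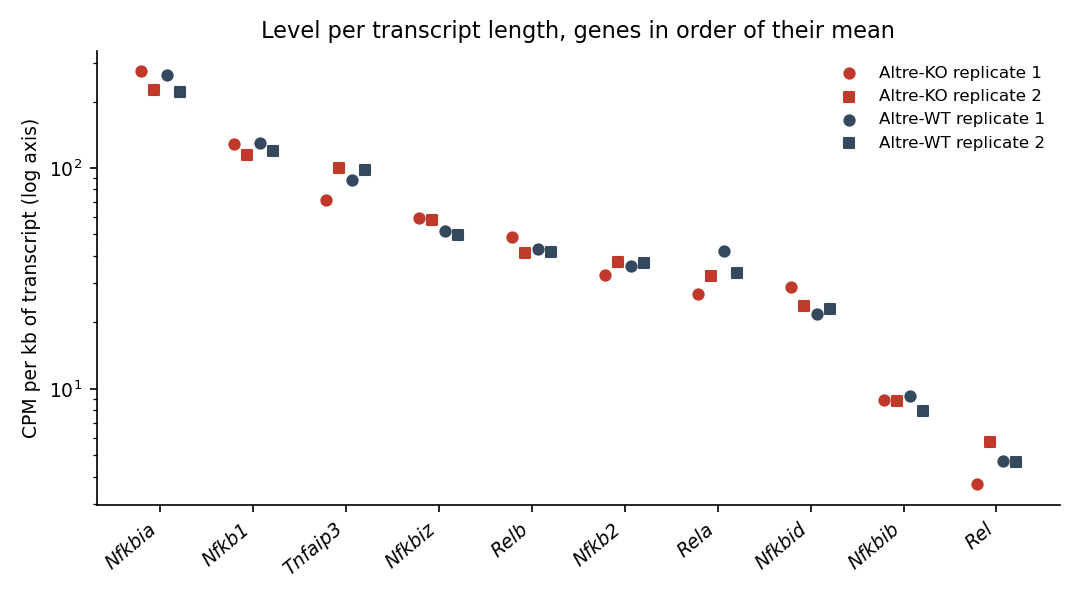
CPM per kb of the longest coding transcript (log axis) for each gene in the 2 Altre-KO (red) and 2 Altre-WT (grey) libraries, in order of the mean. Nfkbia is highest in every library and Rel lowest, and within each gene the red and grey points intermingle apart from Rela, Nfkbid and Nfkbiz.

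Within the subunits, Nfkb1 made up 53.4% and 49.6% of the summed CPM per kb in Altre-KO and 51.0% and 50.6% in Altre-WT, or 34.6% and 30.5% in Altre-KO and 31.6% and 31.4% in Altre-WT by the length of all exons. By the longest coding transcript, Relb gave 20.3% and 17.7% in Altre-KO against 16.8% and 17.6% in Altre-WT, and Nfkb2 gave 13.6% and 16.2% in Altre-KO against 14.0% and 15.7% in Altre-WT. Rela gave 11.2% and 14.0% in Altre-KO against 16.4% and 14.1% in Altre-WT. Rel gave 1.54% and 2.47% in Altre-KO against 1.83% and 1.97% in Altre-WT. By the length of all exons, Relb gave 21.9% and 18.2% in Altre-KO against 17.4% and 18.2% in Altre-WT, under Nfkb2 and under Rela in every library but Altre-KO replicate 1. By that length Nfkb2 gave 21.7% and 24.5% in Altre-KO against 21.4% and 24.05% in Altre-WT. Rela then gave 18.8% and 22.3% in Altre-KO against 26.3% and 22.7% in Altre-WT, and Rel 2.92% and 4.46% in Altre-KO against 3.33% and 3.59% in Altre-WT. The 5 subunits together summed to 240.4 and 231.5 CPM per kb in Altre-KO against 255.9 and 236.7 CPM per kb in Altre-WT. The cytoplasmic inhibitors Nfkbia and Nfkbib summed to 282.9 and 234.2 CPM per kb in Altre-KO against 274 and 228.8 CPM per kb in Altre-WT; both sums overlapped between genotypes.

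The rest of the pathway was read from 4 lists with 75 genes, 72 of them tested, of which 0 passed. Kinases of and above the IKK complex had 6 of 11 members higher and 5 lower (median log2 fold change 0.036), and their 3 smallest p belonged to Tab1, Tab2 and Ikbkg. Tab1, a partner of the kinase TAK1, had 52.1 and 39.4 CPM in Altre-KO against 37.7 and 36.2 CPM in Altre-WT. Tab2, which links TAK1 to ubiquitin chains, had 114.8 and 131.7 CPM in Altre-KO against 143.8 and 134.9 CPM in Altre-WT. Ikbkg, the regulatory subunit NEMO, had 142.7 and 135.5 CPM in Altre-KO against 121.9 and 133.3 CPM in Altre-WT. These were the only 3 of the 11 whose groups did not overlap, beside 30.8% of all tested genes. Their log2 fold changes were 0.29, -0.18 and 0.12, each with a limma adjusted p of 0.999.

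Adaptors between the receptors and IKK had 9 of 19 members higher and 10 lower (median log2 fold change -0.016). Irak4, a kinase of interleukin-1 and Toll-like receptor signalling, had 26.02 and 35.6 CPM in Altre-KO against 42.1 and 39.9 CPM in Altre-WT. Ripk1, a kinase of the TNF receptor complex, had 121.2 and 106.7 CPM in Altre-KO against 89.7 and 98.4 CPM in Altre-WT. Rnf31, the catalytic part of the linear ubiquitin ligase, had 63.7 and 76.2 CPM in Altre-KO against 83.1 and 87.9 CPM in Altre-WT. These 3 had the smallest p of the list.

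Other brakes on the pathway had 12 of 16 tested members higher in Altre-KO and 4 lower (median log2 fold change 0.060), beside 5020 of the 10486 tested genes higher and 5466 lower. Their smallest p belonged to Commd1, which promotes the turnover of RelA, with 24.5 and 26.7 CPM in Altre-KO against 15.9 and 17.2 CPM in Altre-WT (log2 fold change 0.60). Tnip1 and Tnip2, partners of A20, followed. Tnip1 had 118.5 and 119.4 CPM in Altre-KO against 108.8 and 92.1 CPM in Altre-WT, and Tnip2 had 27.3 and 30.1 CPM in Altre-KO against 18.1 and 25.2 CPM in Altre-WT. Groups did not overlap for 7 of the 16, beside 30.8% of all tested genes, and none of the 16 passed (lowest limma adjusted p = 0.999).

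Genes known as NF-kB targets had 10 of 26 tested members higher and 16 lower in Altre-KO (median log2 fold change -0.09). Irf4, a transcription factor of effector Tregs, had 64.9 and 69.9 CPM in Altre-KO against 71.1 and 102.2 CPM in Altre-WT. Tnfrsf18, which encodes the receptor GITR, had 292.4 and 235 CPM in Altre-KO against 215.4 and 225.7 CPM in Altre-WT, and Ltb, which encodes lymphotoxin beta, had 1183 and 939.5 CPM in Altre-KO against 977.7 and 868 CPM in Altre-WT, with overlapping groups. These had the smallest p of the list, with log2 fold changes of -0.34, 0.25 and 0.19 and limma adjusted p of 0.999 each.

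**Figure D4:**
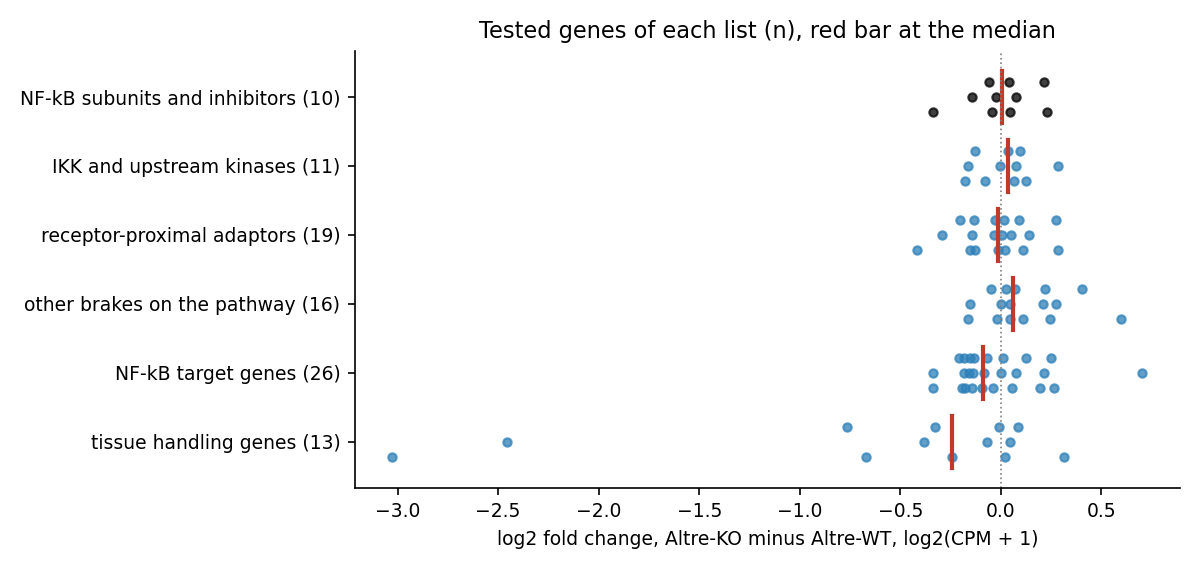
Log2 fold change (Altre-KO minus Altre-WT, log2(CPM + 1), horizontal axis) of every tested gene of each list, with the number tested in brackets and the median as a red bar; vertical spread is only to separate points. Medians of the 4 other pathway lists lie between -0.09 and 0.06, while the tissue handling list holds 2 genes below -2, Hspa1b and Hspa1a.

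Nfkbia, Nfkbiz and Tnfaip3 are also among the genes that tissue dissociation is known to induce, so 14 immediate early and heat-shock genes were read beside them. Of the 13 tested, 9 were lower and 4 higher in Altre-KO (median log2 fold change -0.24), and the genotypes did not overlap for 8, beside 30.8% of all tested genes. The list was chosen with earlier results of these data known, so its counts are a description and not a test of the list. In the test 2 passed as lower, beside 0.0381% of all tested genes. They were the chaperone genes Hspa1b (81.1 and 87.4 CPM in Altre-KO against 309.1 and 701.9 CPM in Altre-WT) and Hspa1a (17.8 and 29.8 CPM in Altre-KO against 116.8 and 325 CPM in Altre-WT), close copies between which reads may be split. Fos, of the AP-1 factors, had 170.2 and 249.4 CPM in Altre-KO against 306.2 and 400.6 CPM in Altre-WT (limma adjusted p = 0.683). Fosb, Klf6, Dusp1 and Jun were also lower without overlap (log2 fold changes -0.67, -0.38, -0.33 and -0.24), and Ier2 was higher (0.32). Zfp36, Egr1, Egr2, Btg2 and Jund lay between -0.07 and 0.09. The list, Hspa1b and Hspa1a included, summed to 3007 and 3099 CPM in Altre-KO and to 3710 and 4430 CPM in Altre-WT. The part of this list in the members' values was not tested. Of the 3 members, Nfkbia and Tnfaip3 overlapped between genotypes, and Nfkbiz was higher in both Altre-KO libraries than in both Altre-WT libraries.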

How the data were processed

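RNA of liver Tregs from young Altre-KO and Altre-WT mice (2 libraries each) was isolated on micro columns and sequenced from SMARTER mRNA libraries, per the labels' protocols. STAR, cutadapt, DESeq2 and build mm10 (GRCm38) are named in the submitters' processing notes; their roles and versions, and the counter and annotation, stay unstated there. The deposited table gives RPM per library (with 0.0001 added, as read from the values), and CPM that the authors scaled to the same total per library. It also holds the authors' mean CPM, log2 ratio, p-value and adjusted p-value, used only where named.

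Reads were estimated from the smallest step of the RPM values; all 40 member values came out whole within 0.02 of a read, but only 93.2% to 93.9% of low values (under 200 reads) did over the table, so no count model was used. limma 3.58.1 (R 4.3.3, mean-variance trend) was fitted on log2(CPM + 1) with group as the only term, over the 10486 genes with at least 10 estimated reads at the median depth (4.22 CPM) in at least 2 libraries, and p-values were adjusted over all of them by Benjamini-Hochberg (threshold 0.05). Fold changes on this scale understate changes of low genes. The procedure was tested on simulated data whose spread was taken from well-covered genes. That run does not measure what could be found for members with few reads, such as Nfkbib and Rel. Intervals on reads are exact Poisson at 95%.

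Symbols, positions and lengths are from GENCODE M21 (23519 of 24452 symbols matched), promoters from RefSeq. With blastn 2.17.0, no transcript of another gene matched a member over 200 bases at 90% identity, apart from genes that overlap Nfkb2 and Nfkbib. Figures were drawn with matplotlib 3.10.9. The members and gene lists were chosen with earlier results of these data known. All 10 members are named, and in each pathway list the 3 genes with the smallest p; for Rel, the 3 genes nearest in profile. Alternatives covered filter, pseudocount, test, scaling, threshold, replicate block and each library left out.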

Additional observations from a re-analysis of the deposited data

How the results depend on the processing

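No member passed under any of the 13 alternative fits or at a threshold of 0.1, and the count of members whose genotypes did not overlap stayed at 3 under each filter and scaling tried, except with median-of-ratios size factors (2, without Rela). The members' median log2 fold change lay between -0.047 and 0.061 when a library was left out. Over the whole table the 4 genes past the threshold became 2 with a pseudocount of 0.1 and 3 among genes with a mean of at least 20 CPM. With a library left out they numbered 6 to 16 (16 without Altre-WT replicate 2, 14 without Altre-KO replicate 2), and the other fits gave 4 to 6. A genotype left with 1 library was assumed to vary like the other genotype. With the replicate number as a block, 6 genes and 0 members passed. Same-numbered libraries did not deviate together over the tested genes as a whole (Pearson's r -0.01 over 10486 genes). Whether they share anything beyond the number was not tested. Of 129 member values under alternatives 10 changed sign. The filter and replicate-block fits return the main log2 fold change unchanged, so their values could not change sign. Rel turned to 0.0056 with median-of-ratios size factors. The other sign changes came with a library left out, where values ran from -0.33 to 0.28 for Rel, -0.046 to 0.20 for Relb, -0.12 to 0.038 for Nfkb1, -0.16 to 0.038 for Nfkb2, -0.10 to 0.18 for Nfkbia, -0.062 to 0.15 for Nfkbib and -0.39 to 0.10 for Tnfaip3; the causes were not tested. Rela, Nfkbid and Nfkbiz kept their sign in every alternative run. These are the 3 members whose genotypes did not overlap, so leaving out a library could not change their sign. Nfkbib fell below the filter of 20 CPM. Depth limits Nfkbib and Rel most.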
